A study of Mus musculus with 3 samples.

Results

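This report describes the genes of the proteasome and of the enzymes that attach and remove ubiquitin in mouse thymocytes. Members were all genes whose symbol begins with Psm, Uba1 to Uba7, Ube, Usp, Fbx, Cul, Otu, Uch, Rnf or Trim (with a number after Usp, Cul and Trim), a rule on names alone. They were 148 of the 6795 genes that the arrays measured with probes of 1 symbol, and 17 of them had more than 1 probe. The RNA came from purified CD69hi thymocytes of wild-type B6 mice, which is C57BL/6, and from unseparated thymocytes of Zap70-/- mice. Both total RNAs were hybridised together on each of 3 two-colour arrays of 1 print. Arrays 1 and 2 had CD69hi RNA labelled with Cy3, and array 3 had it labelled with Cy5. The titles call the second RNA CD69lo. CD69 is a surface protein that thymocytes gain on T cell receptor signalling, and Zap70 is the kinase without which that signal does not pass and thymocytes stop as CD4+CD8+ cells. The sources used here do not give the age or pooling of the mice, or whether each array had its own animals. The p-values therefore reflect the spread over these arrays alone, and that spread may be technical. Genotype, purification and the stages of the cells differ together between the RNAs and cannot be told apart.

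Ubiquitin is activated by an E1 enzyme, passed to an E2 and joined to a target protein with the help of an E3 ligase, most often of the RING type. Cullins are the scaffolds of multi-subunit RING ligases, and F-box proteins choose their targets. Deubiquitinases of the Usp, Otu and Uch families reverse the step. Chains of ubiquitin send proteins to the 26S proteasome, in which the 19S cap recognises and unfolds them and the 20S core cuts them. In immune cells, interferon-inducible subunits and the PA28 activator alter the core, which shapes the peptides shown on MHC class I.

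Values are log2 ratios of CD69hi over Zap70-/- RNA, so that 1 is a 2-fold higher and -1 a 2-fold lower signal in CD69hi RNA. A ± gives the SD over the 3 arrays (n = 3), and a gene is said to have risen or fallen if its limma adjusted p, taken over all 8905 features, was at most 0.05. A ratio gives no level, so neither the abundance of a gene nor the presence of a cell type could be read from these arrays. Fewer cells of a type and less RNA per cell cannot be told apart in such bulk RNA. The deleted gene Zap70 and the sorting marker Cd69 were not analysed here. The direction rests on the labelled dyes, the reading of the deposited value as Cy5 over Cy3, and the immature-thymocyte gene Rag1 (-1.19 ± 0.36, lower in CD69hi RNA). Under the opposite reading each sign would turn. Of 11 measured thymocyte markers 2 were higher and 1 was lower, while of 14 macrophage and dendritic cell markers 11 were higher and 0 lower, with a median of 2.01. Of 8 granulocyte markers 7 lay below 0 on every array, 1 (S100a8) fell and 0 rose, with a median of -0.90. Of 7 markers of NK and innate-like lymphocytes 2 rose and 1 (Gzma) fell. Of 6 B cell and 3 erythroid markers 0 passed (limma, 2 and 1 with p up to 0.05 before adjustment). Of 39 cell cycle and replication genes 13 were lower and 0 higher, with a median of -1.17. The base of the logarithm is not stated, and with a natural logarithm the folds would be larger.

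Few genes of this system reached the adjusted p threshold in the fit of all 3 arrays. Real differences among the remaining members may have been missed with so few arrays. Of 148 members, 3 rose, 2 fell and 143 did not pass, which is 3.38% called against 6.94% of all features. Among all features 4.13% rose and 2.81% fell. The risers were Trim30a, Psme2b and Otulinl, and those that fell were Usp2 and Ube2e1. All 5 calls ended without array 1 and without array 2, where limma called 0 members (12 and 10 with p up to 0.05 before adjustment) and 2.26% and 1.34% of all features. Without array 3, 12 members were called, these 5 among them, against 7.77% of all features.

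The member median was -0.01, beside 0.01 for all features, and the median absolute ratio was 0.22, beside 0.23. With p up to 0.05 before adjustment the count was 27 of 148, or 18.2%, against 23.4% of all features. On all 3 arrays 36 members lay above 0 and 33 below 0, while 24.3% and 22.7% of all features did so. For 127 of 148 members (85.8%) the 95% interval of the ratio, not adjusted for the number of genes, lay wholly between -1 and 1, and this held for 78.2% of all features. A ratio of at least 2-fold on every array was reached by 1 member, Trim30a, and by 253 of all features.

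**Figure D1:**
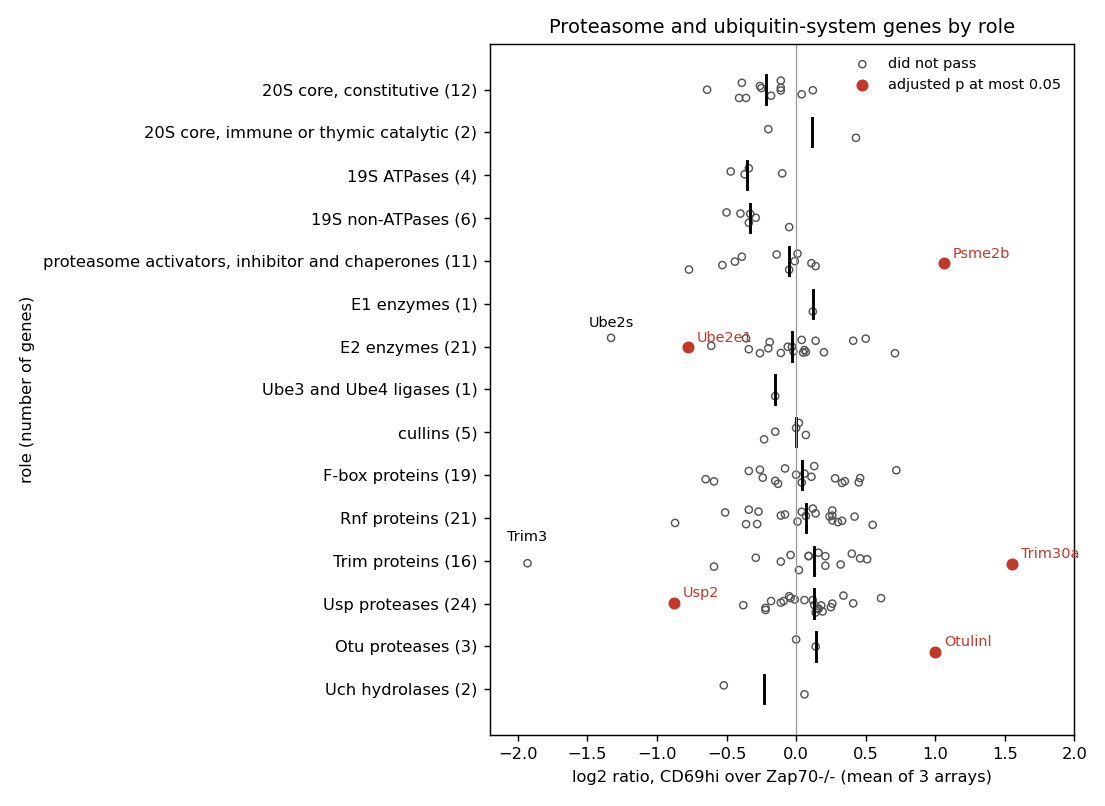
Mean log2 ratio (CD69hi over Zap70-/-, 3 arrays) of each of the 148 members, placed by role with the number of genes in brackets; black bars are class medians and filled red points are the 5 genes with a limma adjusted p of at most 0.05. Most points lie between -1 and 1, the 19S classes lie below 0, and Trim3, the lowest point at -1.93, rests on 1 array.

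Trim30a had the highest ratio of the members. It encodes an interferon-inducible RING protein that dampens innate signalling to NF-κB. Its log2 ratios were 1.69, 1.66 and 1.31 on arrays 1, 2 and 3, a mean of 1.55 ± 0.21, which is 2.93-fold (limma adjusted p = 0.014). All 3 arrays lay above 1, with array 3 lowest. Without array 1 the adjusted p was 0.053, and without array 2 it was 0.065. Its neighbour and close relative Trim30d gave 0.68, 1.16 and -0.32 (mean 0.51 ± 0.75), with array 3 on the other side of 0, and did not pass (adjusted p = 0.39). Spotted cDNA probes can bind transcripts of related genes, so the Trim30 values may be shared between copies.

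The second riser was Psme2b, a gene copy of the PA28 beta chain. PA28 caps the 20S core in place of the 19S regulator. Its ratios were 0.91, 1.09 and 1.19, a mean of 1.06 ± 0.14 and 2.09-fold higher (limma adjusted p = 0.024). The 3 values lay close together. Psme2 is not among the 6795 genes measured by name, and a probe made from cDNA may not separate it from Psme2b. The third was Otulinl, an inactive relative of the linear-chain deubiquitinase Otulin, with 0.95, 0.95 and 1.11 (mean 1.00 ± 0.09, 2.01-fold, adjusted p = 0.024). All arrays lay near 2-fold. For Psme2b and Otulinl the adjusted p was 0.087 and 0.11 without array 1, and 0.16 for each without array 2.

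Usp2, a deubiquitinase that acts on Mdm2 and cyclin D1, was lower in CD69hi RNA, at -0.98, -1.0 and -0.65 (mean -0.88 ± 0.20, adjusted p = 0.039). In fold it was 1.84-fold higher in Zap70-/- RNA. Ube2e1, a ubiquitin-conjugating E2 enzyme, was lower as well, at -0.70, -0.82 and -0.83 (mean -0.78 ± 0.07, adjusted p = 0.038). This is 1.72-fold higher in Zap70-/- RNA. Both lay below 0 on every array, and both are the called members nearest the threshold. Usp2 no longer passed when the arrays were scaled to 1 spread (adjusted p = 0.051). Just outside the threshold stood Psmc3ip (-0.84, -0.95 and -0.52, adjusted p = 0.054) and Ube2j1 (0.79, 0.83 and 0.52, adjusted p = 0.055). Psmc3ip carries a proteasome name but encodes a factor of meiotic recombination, and Ube2j1 is an E2 enzyme of the endoplasmic reticulum that serves the disposal of misfolded proteins. In the fit with a dye term both passed (adjusted p = 0.040 and 0.041), as they did when array 3 was left out (0.042 and 0.045). In these 2 fits the spread comes from arrays 1 and 2 alone. Both also passed when probes with ratios above 4 were left out (0.045 and 0.046). In the other fits neither passed, with adjusted p of 0.25 and 0.27 without array 1, and 0.40 and 0.42 without array 2.

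**Figure D2:**
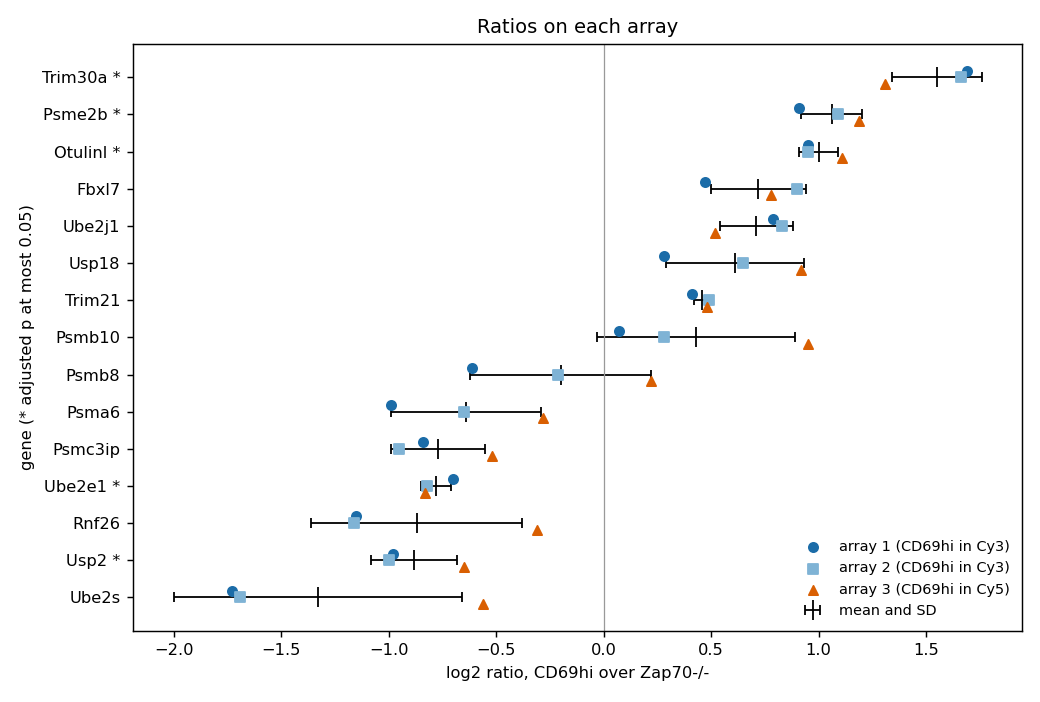
Log2 ratio (CD69hi over Zap70-/-) of 15 members on each array, one marker shape per array, with black bars for the mean and SD of 3 arrays; asterisks mark an adjusted p of at most 0.05. The 5 called genes have spreads from 0.07 for Ube2e1 to 0.21 for Trim30a, and a narrow spread itself makes a call likelier. Ube2s and Rnf26 are nearer 0 on array 3 than on arrays 1 and 2.

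The 250 bases before the transcription start of the called members are printed below, with those of Trim30d as the relative of Trim30a. They come from RefSeq (GRCm38.p6), read 5′ to 3′ along the gene's strand. Capitals mark the core of the interferon-stimulated response element, which is GAAA, then NN, then GAAA, and the GC box, GGGCGG, each searched on both strands. Promoters were found for 121 of the 148 members.

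Trim30a, chr7:104465194-104465443, minus strand: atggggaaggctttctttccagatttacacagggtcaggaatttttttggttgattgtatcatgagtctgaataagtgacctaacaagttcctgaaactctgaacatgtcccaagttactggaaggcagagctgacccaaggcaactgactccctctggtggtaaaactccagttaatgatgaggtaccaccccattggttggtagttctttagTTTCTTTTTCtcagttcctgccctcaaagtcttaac
Trim30d, chr7:104507850-104508099, minus strand: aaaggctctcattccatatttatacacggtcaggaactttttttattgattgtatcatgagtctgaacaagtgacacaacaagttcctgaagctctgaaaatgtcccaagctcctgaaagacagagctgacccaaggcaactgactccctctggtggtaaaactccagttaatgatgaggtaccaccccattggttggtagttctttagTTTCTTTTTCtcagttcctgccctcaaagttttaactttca
Psme2b, chr11:48946411-48946660, minus strand: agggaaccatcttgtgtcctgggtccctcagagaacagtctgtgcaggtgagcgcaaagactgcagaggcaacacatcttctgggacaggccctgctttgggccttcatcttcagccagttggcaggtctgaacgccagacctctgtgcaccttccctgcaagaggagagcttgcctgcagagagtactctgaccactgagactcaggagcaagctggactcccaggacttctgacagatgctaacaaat
Otulinl, chr15:27681543-27681792, minus strand: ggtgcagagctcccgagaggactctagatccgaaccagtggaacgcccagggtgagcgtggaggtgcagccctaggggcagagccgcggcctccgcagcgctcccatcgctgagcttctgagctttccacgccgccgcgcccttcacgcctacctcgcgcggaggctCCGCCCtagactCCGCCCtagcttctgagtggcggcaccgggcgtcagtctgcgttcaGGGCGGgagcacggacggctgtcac
Usp2, chr9:44084670-44084919, plus strand: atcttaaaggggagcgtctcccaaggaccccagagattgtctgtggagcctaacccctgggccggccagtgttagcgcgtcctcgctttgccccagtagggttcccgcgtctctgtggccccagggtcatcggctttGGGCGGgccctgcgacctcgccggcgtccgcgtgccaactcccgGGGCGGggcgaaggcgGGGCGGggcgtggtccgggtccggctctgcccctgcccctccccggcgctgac
Ube2e1, chr14:18331845-18332094, minus strand: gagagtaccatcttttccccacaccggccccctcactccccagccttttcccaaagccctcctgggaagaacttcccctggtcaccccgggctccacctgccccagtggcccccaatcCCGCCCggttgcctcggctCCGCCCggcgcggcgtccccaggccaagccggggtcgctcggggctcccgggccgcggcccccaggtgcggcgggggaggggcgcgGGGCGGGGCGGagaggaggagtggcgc

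Of these 6 windows the Trim30a and Trim30d windows held the interferon element, beginning 36 and 41 bases before the start. These windows shared an identical run of 118 bases. A second annotated start of Trim30a had a match beginning at base 2 after it. Psme2b, Otulinl, Usp2 and Ube2e1 had no match to the letters of the interferon core in the searched 300 bases (250 before and 50 after the start). Otulinl, Usp2 and Ube2e1 had 69.2%, 71.6% and 75.6% G and C and 3, 3 and 4 GC boxes, against 43.2% and 0 boxes for Trim30a and 55.2% and 0 for Psme2b. Over all 32851 promoter windows of this length the interferon core was found in 3.44% and the GC box in 35.7%. In the 146 windows of members they were found in 8.90% and 65.1%. A match of letters is a description and not a binding site.

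The subunits of the standard proteasome did not pass in any case. Of 22 measured genes of the constitutive 20S core and the 19S cap, 0 rose and 0 fell by limma, against 6.94% of all features called. Before adjustment the limma p was at most 0.05 for 4 of the 22 (18.2%), all lower, against 23.4% of all features. The median of the 22 was -0.31, beside 0.01 for all features. On array 1, 19 of the 22 lay below 0 and on array 2, 21 did, against 49.7% of all features on each. On array 3 the count was 10 of 22, against 49.8%. The subunit medians on the 3 arrays were -0.46, -0.40 and 0.02. Array 3 gave the highest of the 3 values for 19 of the 22 (86.4%), for 56.1% of all members and for 45.9% of all features. The shift was smaller on array 3, where CD69hi RNA carried Cy5, and it differed there between the parts of the complex. In the 20S core 3 of 12 lay below 0 on that array (median 0.18), while all 6 of the 19S subunits other than ATPases did (median -0.26). Over the whole set 9 of 22 lay below 0 on every array. With 1 array in that dye orientation, dye and array cannot be told apart. Lower ratios on arrays 1 and 2 were not confined to these subunits. Outside the members, 4 ubiquitin-like modifiers had array medians of -0.43, -0.32 and 0.29, whereas 15 HECT ligase genes had 0.13, 0.18 and 0.14.

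In the 20S core, the catalytic subunits Psmb5, Psmb6 and Psmb7 had means of -0.36 ± 0.53, -0.26 ± 0.22 and -0.39 ± 0.43. Psmb5 gave -0.68 and -0.65 on arrays 1 and 2 but 0.25 on array 3, and Psmb7 gave -0.69 and -0.59 but 0.10. Psma6, an alpha-ring subunit, had the lowest mean of the 12 core genes, at -0.99, -0.65 and -0.28 (mean -0.64 ± 0.35, adjusted p = 0.12). Psmb1, a beta-ring subunit with 2 probes, followed at -0.61, -0.39 and -0.23 (adjusted p = 0.18). These 2 genes and Psmb6 were the 3 of the 12 that lay below 0 on every array. The highest was Psma2 at 0.12 ± 0.32. The class median was -0.22.

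In the 19S cap, the 4 measured ATPases, which unfold substrates, had a median of -0.35. They ran from Psmc4 at -0.47 ± 0.40 (-0.76, -0.63 and -0.01) and Psmc1 at -0.37 ± 0.33 to Psmc5 at -0.10 ± 0.32. The 6 other cap subunits had a median of -0.34, and 5 of the 6 lay below 0 on every array. Psmd7 (-0.70, -0.46 and -0.33, adjusted p = 0.12) and Psmd12 (-0.56, -0.50 and -0.14, adjusted p = 0.20) were lowest. The exception was Psmd14, the cap's own deubiquitinase, whose arrays gave 0.07, 0.62 and -0.84. Psmd4, a ubiquitin receptor, had -0.34 ± 0.25. For 21 of the 22 core and cap genes the 95% interval lay between -1 and 1, the exception being Psma6 (-1.11 to -0.17).

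**Figure D3:**
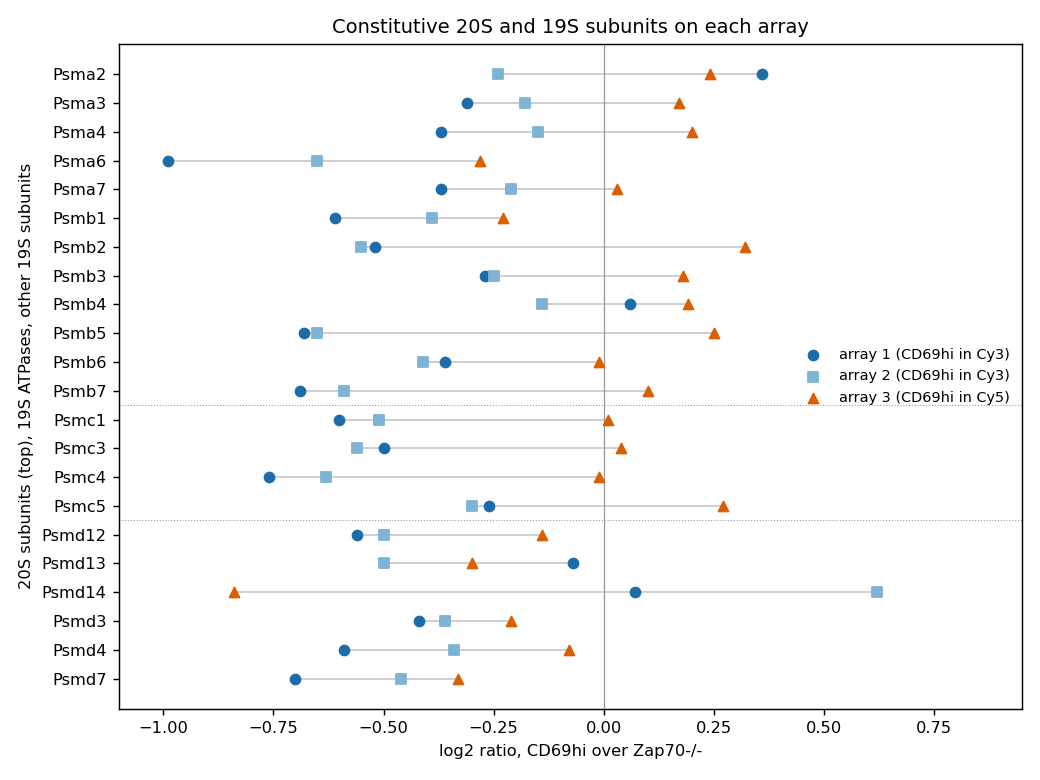
Log2 ratio (CD69hi over Zap70-/-) of the 22 constitutive 20S and 19S subunits on each array; grey lines join a gene's lowest and highest value and dotted lines divide the 20S core, the 19S ATPases and the other 19S subunits. Arrays 1 and 2 lie mostly below 0, with 19 and 21 genes, and array 3 is the rightmost marker for 19 of the 22.

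The 2 interferon-inducible catalytic subunits measured by name showed no common direction. Psmb8, which takes the place of Psmb5, gave -0.61, -0.21 and 0.22 (mean -0.20 ± 0.42, adjusted p = 0.60). Psmb10, which takes the place of Psmb7, gave 0.07, 0.28 and 0.95 (mean 0.43 ± 0.46, adjusted p = 0.30), above 0 on all arrays but near it on array 1. Psmb11, the subunit of cortical thymic epithelium, was not measured by name. Of 7 measured markers of thymic epithelium 0 passed (1 with p up to 0.05 before adjustment).

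Among the activators, the inhibitor and the assembly factors, 1 of 11 rose, 0 fell and 10 passed in neither direction (median -0.05). The class includes Psmc3ip by its name alone. Beside Psme2b, its partner chain Psme1 gave -1.36, 0.50 and 0.83 (mean -0.01 ± 1.18, 95% interval -1.21 to 1.19). Psme3, the nuclear PA28 gamma chain, lay near 0 on every array (-0.04, 0.03 and -0.14). The assembly chaperones Psmg1 (-0.44 ± 0.37) and Psmg3 (-0.53 ± 0.55) and the inhibitor Psmf1 (-0.39 ± 0.39) followed the pattern of the standard subunits, with arrays 1 and 2 between -0.88 and -0.47 and array 3 between -0.05 and 0.09. They were picked from the class after their values were seen. The other assembly factors did not follow it, with means of 0.11 ± 0.14 for Psmg4, -0.14 ± 0.14 for Psmd9, 0.01 ± 0.24 for Psmd10 and 0.14 ± 0.30 for Psmd5.

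Beyond Trim30a, other interferon-inducible members, looked at after their values were seen, did not pass. Whether the gene copy Psme2b is itself induced by interferon was not tested. Usp18, which removes the ubiquitin-like modifier Isg15, gave 0.28, 0.65 and 0.92 (mean 0.61 ± 0.32, adjusted p = 0.12). Trim21, a cytosolic antibody receptor, gave 0.41, 0.49 and 0.48 (mean 0.46 ± 0.04, adjusted p = 0.11), and its 2 probes had means of 0.38 and 0.55. Trim25, a ligase of RNA sensing, had 0.32 ± 0.24. These 3 lay above 0 on every array, a sign that follows from how they were picked, since Psmb8, Psme1 and Trim30d, also interferon-inducible, had arrays on both sides of 0. Beside them, 7 of 12 measured genes listed for class I presentation and interferon induction rose and 0 fell, with a median of 0.98, led by Irf7 (2.81 ± 0.18) and Ifit3 (1.94 ± 0.22). Macrophages and dendritic cells can express these genes too, and 11 of their 14 markers rose in the same RNA, Lyz2 (2.51 ± 0.08) and C1qa (2.23 ± 0.09) among them. Their part in the ratios of Trim30a, Psme2b and Otulinl was not tested.

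The single E1 enzyme measured, Uba6, had 0.26, 0.30 and -0.19 (mean 0.12 ± 0.27). Of 21 members with an E2 name, 0 rose, 1 fell and 20 passed in neither direction (median -0.03). Ube2s, which lengthens chains on targets of the anaphase-promoting complex, had the lowest mean of the E2 enzymes, at -1.73, -1.69 and -0.56 (mean -1.33 ± 0.67, adjusted p = 0.064). It passed without array 3, with a dye term and without probes of ratios above 4, but not without array 1 or without array 2. Ube2c, which starts those chains, gave -0.10, -0.07 and 0.76. The means of these E2 enzymes of the mitotic complex lay on opposite sides of 0, and neither passed. Ube2n, which with Ube2v1 builds the lysine-63 chains of NF-κB signalling, had -0.61 ± 0.35 and Ube2v1 -0.36 ± 0.42. In both the arrays with CD69hi RNA in Cy3 were the lower ones.

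Different probes of 2 E2 genes disagreed. For Ube2h the probe means were -0.75 and 0.35, and for Ube2g1 -0.49 and 0.61, a span of 1.10 in each. Their averages, -0.20 and 0.06, describe neither probe. No probe of the 17 members with several probes passed when fitted alone. In 9 of the 17 the probe means had both signs.

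Of 24 Usp, 3 Otu and 2 Uch deubiquitinases, 1 rose, 1 fell and 27 passed in neither direction (median 0.12). Without Usp2 and Otulinl, the largest shifts were those of Usp18 and of Uchl5, a deubiquitinase of the 19S cap, at -0.73, -0.48 and -0.35 (mean -0.52 ± 0.20, adjusted p = 0.11). Uchl1, the neuronal hydrolase, gave 0.74, -0.27 and -0.31. Usp7, which stabilises Mdm2, lay at -0.18 and -0.20 on arrays 1 and 2 and at 0.77 on array 3. Usp9x lay below 0 throughout (-0.07, -0.15 and -0.43). Of the 24 Usp genes, 22 had 95% intervals between -1 and 1.

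Among cullins, 0 of 5 passed (0 with p up to 0.05 before adjustment), and their means ran only from -0.23 for Cul1, the scaffold of F-box ligases, and -0.15 for Cul7 to 0.07 for Cul5. Of 19 F-box genes 0 passed (4 with p up to 0.05 before adjustment, median 0.04). Fbxl7 was highest, at 0.47, 0.90 and 0.78 (mean 0.72 ± 0.22, adjusted p = 0.063). Fbxo45 was lowest, at -0.81, -0.95 and -0.20 (mean -0.65 ± 0.40, adjusted p = 0.13). It passed without array 3 (adjusted p = 0.045), but not without array 1 (0.46) or array 2 (0.62).

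Of 21 Rnf genes 0 passed (3 with p up to 0.05 before adjustment, median 0.07). Rnf26, a ligase of the endoplasmic reticulum, was lowest at -1.15, -1.16 and -0.31 (mean -0.87 ± 0.49, adjusted p = 0.097), and passed without array 3 (adjusted p = 0.031) as well as in the fit with a dye term (0.037). Rnf123, a ligase for the cell cycle inhibitor p27, was highest at 1.06, 0.41 and 0.18 (mean 0.55 ± 0.45). Rnf31, the catalytic chain of the linear-ubiquitin ligase, lay at 0.32, 0.23 and 0.22, and Ube4b, the 1 member with a U-box, at -0.15 ± 0.15. Of 16 Trim genes 1 rose, 0 fell and 15 passed in neither direction (median 0.12). The lowest mean of all members, Trim3 at -1.93 ± 3.95, came from arrays of 0.10, 0.58 and -6.48, and the 95% interval ran from -5.81 to 1.94.

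Other genes of the pathway were taken from lists by function, and the lists are not independent of earlier results. Of 98 measured, 2 rose, 6 fell and 90 passed in neither direction (median -0.06). This is 8.16% called, against 6.94% of all features, of which 4.13% rose and 2.81% fell. Those that fell included Skp2 (-1.69, -1.51 and -0.98, mean -1.39 ± 0.37, adjusted p = 0.028), the F-box protein that targets p27, and Dtl (-1.23 ± 0.33, adjusted p = 0.031), a receptor of the Cul4 ligase in S phase. These were 2 of 19 cullin partners and COP9 signalosome genes, of which 0 rose. Brca1 (-1.31 ± 0.25), a ligase of DNA repair, and Cbl (-1.12 ± 0.27), a ligase that attenuates T cell receptor signalling, fell among 34 other RING and U-box ligases, while Birc3 (0.99 ± 0.16), which ubiquitinates in NF-κB signalling, rose. Skp2, Dtl and Brca1 are cell cycle-regulated genes, and the 39 cell cycle genes had a median of -1.17. The part of cycling cells in these ratios was not tested, nor was that of granulocytes, whose markers had a median of -0.90.

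Among 15 HECT ligase genes Herc1 rose (0.78 ± 0.17, adjusted p = 0.045) and 0 fell. Among 12 other deubiquitinases and deSUMOylases Desi1, a deSUMOylase, fell (-2.80, -2.84 and -1.76, mean -2.47 ± 0.61, adjusted p = 0.018), which was 1 of the 2 genes of these lists past 2-fold on every array, Brca1 being the other. Of 4 ubiquitin-like modifiers Atg12, which serves autophagy, fell (-0.84 ± 0.11). Of 10 shuttles and cofactors of the proteasome 0 passed (1 with p up to 0.05 before adjustment), and their medians on the 3 arrays, -0.28, -0.30 and -0.02, ran as those of the standard subunits did. Of 4 genes of the anaphase-promoting complex 0 passed (1 with p up to 0.05 before adjustment, median -0.34). Without array 1 or without array 2, Desi1 was the 1 gene of these 8 that still passed.

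**Figure D4:**
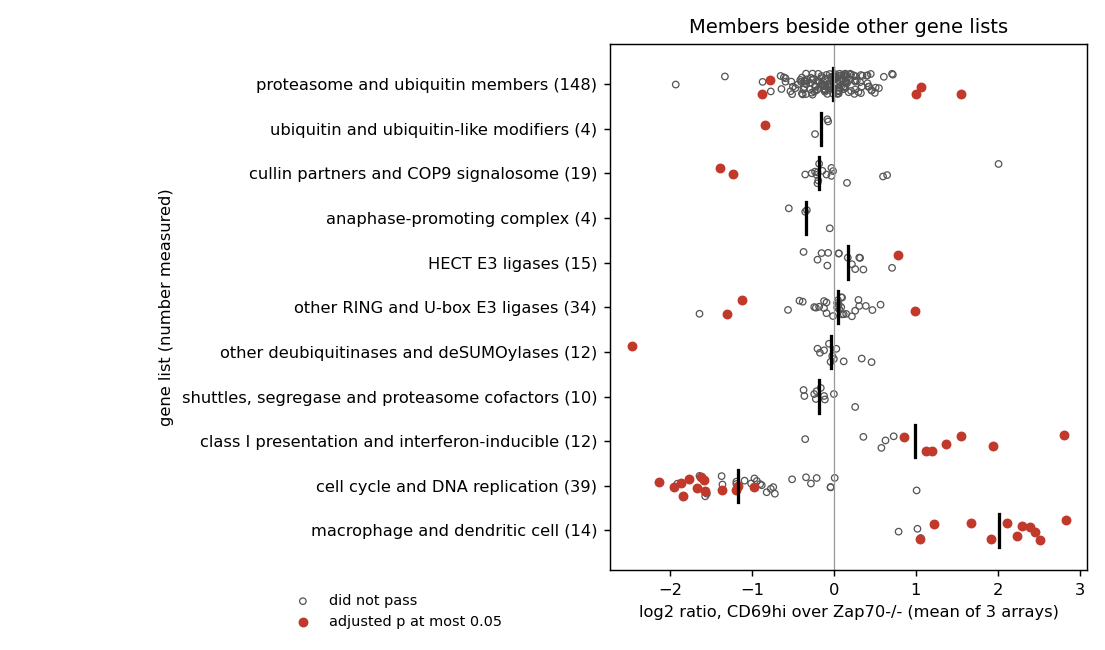
Mean log2 ratio (CD69hi over Zap70-/-, 3 arrays) of the members and of genes in other lists, with the number measured in brackets; black bars are medians and filled red points passed at an adjusted p of at most 0.05. The members have a median of -0.01 and the pathway lists have medians from -0.34 (anaphase-promoting complex) to 0.17 (HECT ligases), whereas the class I and interferon list (median 0.98) and the macrophage and dendritic cell list (2.01) lie above it and the cell cycle list (-1.17) below it.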

How the data were processed

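The authors deposited a log ratio for every probe on every array, taken here as log2. The sources used here state neither its base nor how background and dyes were corrected. The array medians were -0.004, -0.005 and -0.002. Arrays 1 and 2, with CD69hi RNA in Cy3, were multiplied by -1. Before this, array 3 correlated across probes at r = -0.25 with array 1 and at -0.395 with array 2. Of 9596 probes, 7486 had 1 symbol in the platform annotation. They were averaged per symbol and the rest stood alone, giving 8905 features. RefSeq changed 0 symbols. Probes with several symbols were not counted as members, and probes near background could not be left out because no intensities were used.

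In R 4.3.3, limma 3.58.1 fitted 1 coefficient to the turned ratios (lmFit, then eBayes; 2 residual degrees of freedom), and p-values were adjusted over all 8905 features by the Benjamini-Hochberg method. The fit was tested on simulated data. The number of arrays limits the precision. The members, role classes and lists were chosen with earlier results of these data known. Named were called members, the 2 largest shifts in classes without a call, members whose probes spanned over 1, the 2 members on each side of the threshold and up to 3 called genes per pathway list. Other genes named were chosen after their values were seen. Alternatives left out each array, added a dye term, scaled or centred arrays, used robust shrinkage, left array 3 unturned, took probe medians, or left out 87 probes with an absolute ratio above 4.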

Additional observations from a re-analysis of the deposited data

How the results depend on the processing

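Leaving out 1 array gave from 0 to 4 members rising and from 0 to 8 falling, against 3 and 2 with all arrays, and from 0 to 1 pathway genes rising and from 1 to 6 falling, against 2 and 6. Among all features 1.9% rose without array 1, 1.07% without array 2 and 3.18% without array 3. The shares of all features that fell in these fits were 0.359%, 0.27% and 4.59%. Such fits have 1 residual degree of freedom, against 2 in the main fit. The fit with a dye term also has 1. Its spread comes from arrays 1 and 2 alone, because array 3 is the single array of its dye orientation. Trim3 was among the members called with a dye term, though its arrays gave 0.10, 0.58 and -6.48. Without array 3 both arrays left have CD69hi RNA in Cy3, so dye and ratio cannot be told apart there. With a dye term 5 members rose and 7 fell, and 6 pathway genes rose, while 6.31% of all features rose and 5.77% fell. With array 3 unturned 0 members and 0 pathway genes rose or fell (limma, 4 members had p up to 0.05 before adjustment), and the member median was -0.09. In that fit 0% of all features rose and 0% fell, so the loss of calls was not particular to the members. Scaling left 1 member falling, while 2.08% of all features fell. Without probes of ratios above 4, 4 members fell and 4 pathway genes rose, while 3.47% of all features fell and 4.52% rose. The causes were not tested. The 5 called members all passed with robust shrinkage, probe medians, centred arrays, a dye term and without extreme ratios. The median of the 22 standard proteasome subunits stayed between -0.43 and -0.21 under all alternatives. Each alternative held array 1 or array 2, where the subunit medians were -0.46 and -0.40. The range therefore does not test array 3, where the median was 0.02. No paired analysis was possible because there is 1 group of arrays, in which each ratio already sets both RNAs of an array against each other.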

Other observations

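The arrays also carried 28 probes annotated to several genes of which at least 1 matched the member names. Of these, limma called 1 higher and 1 lower after adjustment, while 4.13% of all features were called higher and 2.81% lower. Neither of these 2 probes can be given to 1 gene. Ddb1, the adaptor of Cul4 ligases, had ratios of 3.68, -0.10 and 2.44 on the 3 arrays (mean 2.01 ± 1.93) and did not pass (adjusted p = 0.20). With Trim3 and Psme1 it was among the genes of this system whose arrays differed most.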
